A study of Mus musculus with 4 samples.

Results

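The genes described here are 10 genes of MHC class II presentation, found by name among the 41214 genes of the count table. They are H2-Aa, H2-Ab1 and H2-Eb1, which encode classical class II chains, Cd74, which encodes the invariant chain, H2-DMa, H2-DMb1 and H2-DMb2, which encode the peptide editor H2-DM, H2-Oa and H2-Ob, which encode its inhibitor H2-O, and Ciita, which encodes the class II transactivator. They were chosen by function and not by their values, although earlier results of these data were known. All 10 passed the filter on low counts (10 or more in 2 or more libraries) that left 14554 genes for testing. B cells use class II molecules to show peptides from internalised antigen to CD4+ T cells. The invariant chain fills the peptide groove until endosomal proteases cut it down to a short fragment, and H2-DM then exchanges this fragment for an antigen peptide. CIITA is the coactivator that binds to a set of factors already sitting on the class II promoters, and B cells express it without stimulation.

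The libraries were made from RNA of unstimulated B220+ splenocytes of MIZ-1WT and MIZ-1DPOZ mice on a C57BL/6 background, with 2 libraries per genotype. The study used young adult mice. In MIZ-1DPOZ mice (MB1-Cre x Miz-1floxPOZ), the POZ domain of the transcription factor MIZ-1 is removed by a Cre recombinase expressed from the Cd79a (mb-1) promoter and therefore in B lineage cells. Whether the MIZ-1WT mice carried MB1-Cre or the floxed allele, and whether a library pools several animals, is not given in the sources used here. The comparison asks whether the genes that B cells need for class II presentation have another RNA level when MIZ-1 lacks its POZ domain.

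Each library held between 43026814 and 46387209 counts on genes. Zbtb17, the gene of MIZ-1, had 2087 and 1946 counts in MIZ-1WT and 1774 and 1669 in MIZ-1DPOZ, and this gene-level count also covers exons outside the deleted part. Cd79a, whose promoter drives the Cre, fell by 1.44 on the log2 scale. Xist had 49 and 60 counts in MIZ-1WT and 38145 and 40838 in MIZ-1DPOZ, and Ddx3y, Eif2s3y, Kdm5d and Uty of the Y chromosome had log2 fold changes between -4.66 and -4.29, so that sex and genotype cannot be told apart in any comparison given here. Ddx3y still had 680 and 622 counts in MIZ-1DPOZ, against 15840 and 14896 in MIZ-1WT, and the source of these reads was not tested. The pan-B cell markers were abundant in all 4 libraries, with a sum over 10 markers between 9043 and 11225 CPM, the usual scaling of counts to library size.

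The promoters of most class II genes share a module in which an X box, bound by the RFX complex, lies upstream of a Y box, bound by NF-Y. RefSeq promoter windows (GRCm38.p6, 250 bases before to 50 after each start) were found for 7 of the 10 genes and not for H2-Ab1, Cd74 and Ciita. The windows were searched on the sense strand for an X core, GNAAC, followed after 28 to 34 bases by a Y box, GATTGG, letters and spacing that were set after some of these windows had been seen. This pair stood in the windows of H2-Aa, H2-Eb1, H2-DMb1, H2-Oa and H2-Ob, and in 67 of all 32851 promoter windows (0.204%). The Y box alone stood in 8.71% and the X core alone in 61.6% of all windows on that strand. H2-DMb2 and one of the 2 windows of H2-DMa held a Y box without an X core at this spacing, and the other window of H2-DMa held no Y box. The stretches shown are those of the genes whose values differ most in what follows, H2-Oa and H2-Ob, of the near-identical pair H2-DMb1 and H2-DMb2, and of H2-Aa and H2-Eb1 as classical chains. Each reads 5′ to 3′ on the strand of its gene, upstream of the RefSeq start, with the X core and the Y box in capitals.
H2-Oa, chr17:34092293-34092348, plus strand: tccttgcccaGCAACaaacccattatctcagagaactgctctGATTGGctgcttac
H2-Ob, chr17:34238805-34238860, plus strand: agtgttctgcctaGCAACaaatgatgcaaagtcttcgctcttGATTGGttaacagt
H2-DMb1, chr17:34153087-34153142, plus strand: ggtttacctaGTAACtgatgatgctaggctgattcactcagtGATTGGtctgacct
H2-DMb2, chr17:34145116-34145171, plus strand: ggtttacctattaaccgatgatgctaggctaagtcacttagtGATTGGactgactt
H2-Aa, chr17:34287859-34287914, minus strand: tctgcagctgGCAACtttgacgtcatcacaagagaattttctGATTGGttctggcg
H2-Eb1, chr17:34305765-34305820, plus strand: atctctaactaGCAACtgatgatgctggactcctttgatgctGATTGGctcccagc
The X core and the Y box were 32 bases apart in H2-Oa, H2-DMb1 and H2-Aa, 31 in H2-Eb1 and 29 in H2-Ob, counted from first letter to first letter. These matches describe letters in a window and not binding.

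In the comparison of MIZ-1DPOZ with MIZ-1WT, the classical chains and the invariant chain did not pass the test, whereas genes of the H2-DM and H2-O pairs differed in opposite directions. H2-Oa and H2-DMa were higher, and H2-Ob, H2-DMb1 and Ciita were lower, by edgeR's quasi-likelihood test at an adjusted p under 0.05. The log2 fold changes of the 10 genes ranged from -0.38 to 0.30 with a median of -0.02, against a median of -0.0064 and quartiles of -0.23 and 0.33 over all tested genes. The 2 higher and 3 lower genes of 10 stand beside 21.1% higher, 18.9% lower and 40.0% called in either direction among all tested genes, so that the share called was close to the background. The 2 genotypes did not overlap in 5 of the 10 genes, against 74.8% of all tested genes. At the limits used by the study (0.6 or more on the log2 scale in either direction, unadjusted p under 0.05), edgeR and DESeq2 each called 0 of the 10 genes, against 20.3% of all tested genes by edgeR. At an unadjusted p under 0.05 alone, 5 of the 10 genes passed with each tool.

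**Figure D1:**
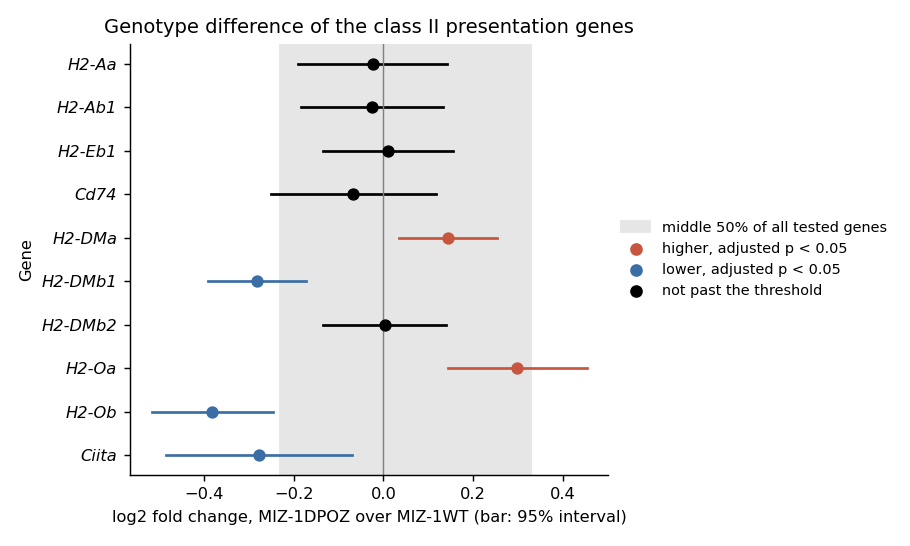
Log2 fold change of each gene in MIZ-1DPOZ over MIZ-1WT with its 95% interval, and a grey band between the quartiles of all tested genes, from -0.23 to 0.33. H2-Oa and H2-DMa lie above 0, H2-Ob, H2-DMb1 and Ciita lie below 0, and the intervals of the other 5 genes include 0.

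These calls depended on what the libraries were scaled to. Library sizes were then scaled on the summed counts of the 10 pan-B cell markers, 8 of which fell in the main comparison. The median of all tested genes moved from -0.0064 to 0.25, with 6121 of 14554 genes called higher and 739 lower. Of the 10 class II genes, 7 were called higher and 0 lower, with H2-Oa at 0.56 and H2-DMa at 0.40. Relative to the median of all tested genes, the values of the 10 genes were between -0.38 and 0.31 with the main scaling and between -0.38 and 0.30 with the pan-B scaling. In bulk RNA of this kind, fewer cells of a type and less RNA per cell cannot be told apart, and the p-values measure the spread between these libraries.

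H2-Aa and H2-Ab1 encode the alpha and beta chain of I-A, the only complete classical class II molecule of C57BL/6 mice. H2-Aa was at 3433 and 3336 CPM in MIZ-1WT and at 3221 and 3436 CPM in MIZ-1DPOZ. H2-Ab1 was at 2311 and 2288 CPM in MIZ-1WT and at 2175 and 2343 CPM in MIZ-1DPOZ. In both genes the 2 genotypes overlapped, since MIZ-1DPOZ replicate 1 was the lowest of the 4 libraries and MIZ-1DPOZ replicate 2 the highest. Their log2 fold changes were -0.02 (95% interval -0.19 to 0.14) and -0.03 (95% interval -0.18 to 0.13), so that changes of more than 12.3% downward or 10.3% upward lay outside both intervals. With the pan-B scaling both were at 0.23, with adjusted p of 0.0174 and 0.0154.

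H2-Eb1 encodes the beta chain of I-E. It was at 2198 and 2227 CPM in MIZ-1WT and at 2181 and 2277 CPM in MIZ-1DPOZ, with a log2 fold change of 0.01 (95% interval -0.13 to 0.16). H2-Ea, the gene of its partner chain, had 0 and 4 counts in MIZ-1WT and 2 and 3 counts in MIZ-1DPOZ, and was too low to be tested. C57BL/6 mice are known to carry an H2-Ea gene that is not expressed, so the I-E beta chain RNA was abundant in cells that had next to no RNA for its partner. H2-Eb2, a neighbouring beta chain gene that is not among the 10, had a log2 fold change of -0.16 ± 0.08 (SE) and an adjusted p of 0.149.

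Cd74 was at 5986 and 5836 CPM in MIZ-1WT and at 5439 and 5844 CPM in MIZ-1DPOZ. MIZ-1DPOZ replicate 1 was the lowest library and the other MIZ-1DPOZ library lay within the MIZ-1WT values. The log2 fold change was -0.07 (95% interval -0.25 to 0.12, adjusted p = 0.507), and 0.19 with the pan-B scaling (adjusted p = 0.0405).

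**Figure D2:**
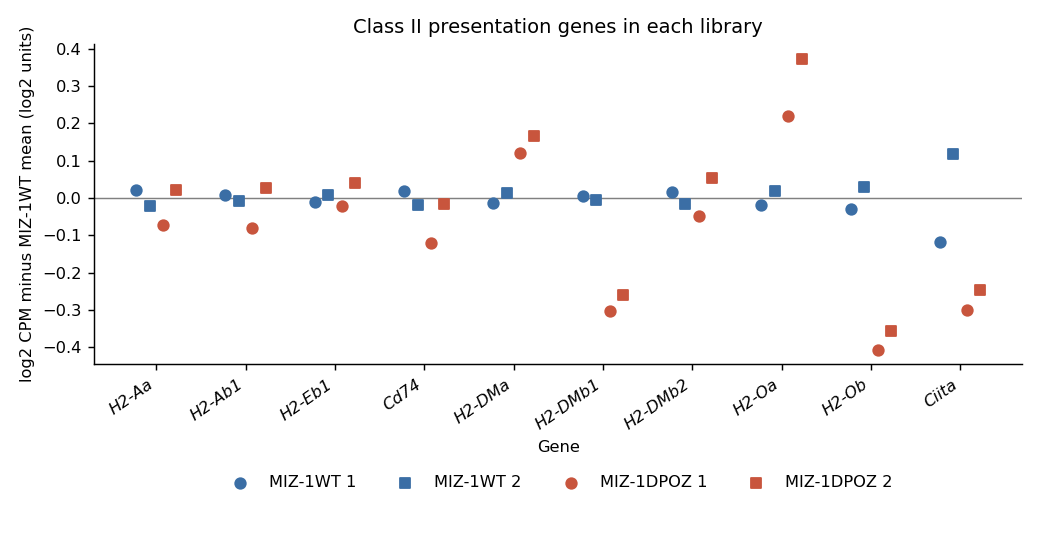
Log2 CPM of each gene in each of the 4 libraries, minus the mean of the 2 MIZ-1WT libraries. The MIZ-1DPOZ libraries lie on both sides of 0 for H2-Aa, H2-Ab1, H2-Eb1 and H2-DMb2, above both MIZ-1WT libraries for H2-DMa and H2-Oa, and below both for H2-DMb1, H2-Ob and Ciita.

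H2-DM is a heterodimer of an alpha chain, encoded by H2-DMa, and a beta chain, encoded by H2-DMb1 or H2-DMb2. The alpha chain RNA was slightly higher in MIZ-1DPOZ. H2-DMa was at 255 and 259 CPM in MIZ-1WT and at 280 and 288 CPM in MIZ-1DPOZ, a log2 fold change of 0.14 ± 0.04 (SE) with an adjusted p of 0.0477. This call was close to the threshold, with adjusted p of 0.246 without MIZ-1WT replicate 1, 0.178 without MIZ-1WT replicate 2, 0.0794 without MIZ-1DPOZ replicate 2 and 0.106 with a replicate block. The annotated exons of H2-DMa share 360 bases with Brd2 on the opposite strand, and Brd2 fell by 0.29 on the log2 scale (adjusted p = 0.00710).

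The beta chain genes differed from each other. H2-DMb1 was at 156 and 155 CPM in MIZ-1WT and at 126 and 129 CPM in MIZ-1DPOZ, and it fell by 0.28 ± 0.04 (SE) on the log2 scale with an adjusted p of 0.00610. H2-DMb2 was at 717 and 700 CPM in MIZ-1WT and at 685 and 735 CPM in MIZ-1DPOZ, with a log2 fold change of 0.0031 (95% interval -0.13 to 0.14). The MIZ-1DPOZ libraries were thus both below MIZ-1WT for H2-DMb1 and on both sides of it for H2-DMb2. The adjusted p of H2-DMb1 was 0.0651 without MIZ-1WT replicate 1 and 0.0542 without MIZ-1WT replicate 2, and with the pan-B scaling it was 0.764 at a log2 fold change of -0.02.

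The split between the beta chain genes is uncertain. Their principal transcripts were identical at 94.5% of 1254 aligned bases, and 22.7% of the 50-base windows of H2-DMb1 and 24.8% of those of H2-DMb2 also occurred in another gene, for H2-DMb1 always in H2-DMb2. With the counts of both genes summed into 1 row, a step chosen after their values were seen, the log2 fold change was -0.04 with an adjusted p of 0.558.

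H2-O is a heterodimer of H2-Oa and H2-Ob that binds H2-DM and restrains its peptide exchange, and it is made mainly by B cells and some thymic and dendritic cells. The RNA of its 2 chains changed in opposite directions in MIZ-1DPOZ. H2-Oa was at 136 and 139 CPM in MIZ-1WT and at 160 and 178 CPM in MIZ-1DPOZ, which is higher in both libraries. Its log2 fold change was 0.30 ± 0.06 (SE, 95% interval 0.14 to 0.45) with an adjusted p of 0.0150. Its adjusted p was 0.106 without MIZ-1WT replicate 1 and 0.0760 without MIZ-1WT replicate 2, at log2 fold changes of 0.28 and 0.32.

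H2-Ob was at 1334 and 1389 CPM in MIZ-1WT and at 1027 and 1063 CPM in MIZ-1DPOZ. Both MIZ-1DPOZ libraries lay below both MIZ-1WT libraries, and the gap between the genotypes exceeded the difference between replicates. It fell by 0.38 ± 0.05 (SE, 95% interval -0.52 to -0.25) on the log2 scale with an adjusted p of 0.00484, the largest change and the lowest adjusted p of the 10 genes. It was the only one of the 10 called in each fit that left out 1 library, with log2 fold changes between -0.41 and -0.35 and adjusted p up to 0.0388, and with the pan-B scaling it was at -0.12 (adjusted p = 0.105). H2-Oa shares 321 annotated exon bases with BC051537 on the opposite strand, which had between 61 and 95 counts against 5854 to 7814 for H2-Oa, and H2-Ob shares none with another gene.

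Per length of the principal transcript, H2-Ob RNA was 4.01 and 4.06 times that of H2-Oa in the MIZ-1WT libraries and 2.61 and 2.43 times in the MIZ-1DPOZ libraries. The ratio was lower in both MIZ-1DPOZ libraries, with a log2 difference of -0.68 against a spread of 0.07 (SD) within a genotype. It was taken up after the values of the 2 genes had been seen, and with 2 libraries against 2 the exact permutation test, two-sided, cannot give a p below 0.333, which is what it gave. The beta to alpha ratio of H2-DM, with H2-DMb1 and H2-DMb2 summed, was 3.99 and 3.84 in MIZ-1WT and 3.38 and 3.50 in MIZ-1DPOZ, also taken up after the values were seen. In both heterodimers the beta chain RNA exceeded the alpha chain RNA in all 4 libraries, and by less in MIZ-1DPOZ.

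H2-DM to H2-O is the balance between the editor and its inhibitor. Summed over their chains, the ratio of H2-DM to H2-O RNA per length was 1.23 and 1.17 in MIZ-1WT and 1.39 and 1.39 in MIZ-1DPOZ. This is a log2 difference of 0.21, and -0.15 when only the alpha chains H2-DMa and H2-Oa were used, for which the ratio was 1.23 and 1.22 in MIZ-1WT and 1.15 and 1.06 in MIZ-1DPOZ. The direction of the balance therefore depended on which chain was read.

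H2-DMb2 to H2-DMb1 was 4.54 and 4.46 in MIZ-1WT and 5.37 and 5.60 in MIZ-1DPOZ, a log2 difference of 0.28, with the uncertainty of their split given before. The ratios between the classical chains and Cd74 differed less. The ratio of I-A, H2-Aa plus H2-Ab1, to Cd74 was 1.17 in both MIZ-1WT libraries and 1.21 and 1.20 in the MIZ-1DPOZ libraries. H2-Ab1 to H2-Aa was 0.627 and 0.638 in MIZ-1WT and 0.629 and 0.635 in MIZ-1DPOZ. Summed over all 10 genes, the CPM were 1.57 and 1.52 times the sum of the pan-B cell markers in MIZ-1WT. In MIZ-1DPOZ they were 1.75 and 1.78 times that sum, a log2 difference of 0.19. Both sums were lower in MIZ-1DPOZ. The sum of the 10 genes was 17140.5 and 17051.7 CPM in MIZ-1WT and 15834.6 and 16855.9 CPM in MIZ-1DPOZ. That of the pan-B cell markers was 10922 and 11225 CPM in MIZ-1WT and 9043 and 9475 CPM in MIZ-1DPOZ. The exact permutation test gave 0.333, its smallest possible value, for I-A to Cd74, for H2-DM to H2-O and for the sum against pan-B markers.

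**Figure D3:**
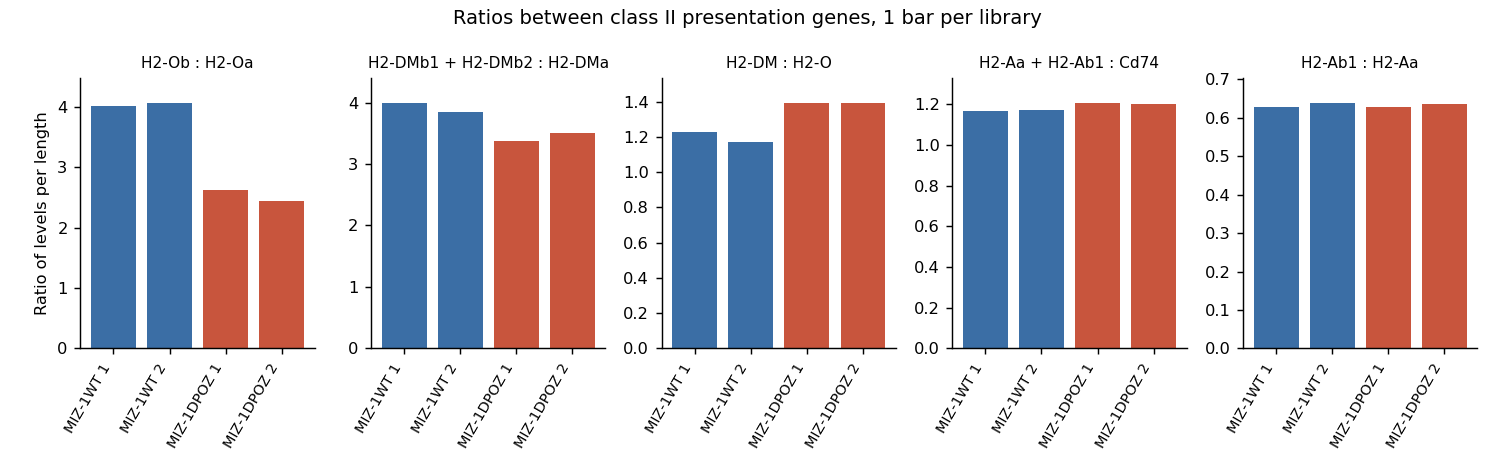
Ratios of levels per length between class II presentation genes, 1 bar per library from 0, with blue for MIZ-1WT and red for MIZ-1DPOZ. H2-Ob to H2-Oa is at 4.01 and 4.06 in MIZ-1WT and at 2.61 and 2.43 in MIZ-1DPOZ, while H2-Ab1 to H2-Aa is between 0.627 and 0.638 in all 4 libraries.

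The 10 genes took 1.63% to 1.71% of all counts on genes. Per length of the principal transcript, Cd74 was the most abundant at 4192 ± 75.4 CPM per kb in MIZ-1WT and 4001 ± 203 in MIZ-1DPOZ (SD, n = 2), the level of rank 3 among the 12292 tested protein-coding genes. H2-Aa followed at 3001 ± 60.8 and 2951 ± 135 CPM per kb, then H2-Ab1 at 1897 ± 13.8 and 1864 ± 97.8 and H2-Eb1 at 1326 ± 12.3 and 1335 ± 40.9. The values of these 4 genes did not overlap with each other or with those of the other 6.

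Of the accessory genes, H2-DMb2 was at 497 ± 8.34 CPM per kb in MIZ-1WT and 498 ± 24.6 in MIZ-1DPOZ, and H2-Ob at 510 ± 14.4 and 391 ± 9.42. These 2 neighbours overlapped in MIZ-1WT and were apart in MIZ-1DPOZ. H2-DMa at 155 ± 1.89 and 171 ± 3.64 CPM per kb lay above H2-Oa at 126 ± 2.41 and 155 ± 11.7 in each genotype. Ciita at 111 ± 12.8 and 91.9 ± 2.39 and H2-DMb1 at 110 ± 0.482 and 90.8 ± 1.89 CPM per kb overlapped in both genotypes. With the length of all annotated exons instead, a choice made after the data were seen, H2-Eb1 came before H2-Ab1 and H2-Aa, and H2-Oa and H2-DMb1 came before H2-DMa.

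**Figure D4:**
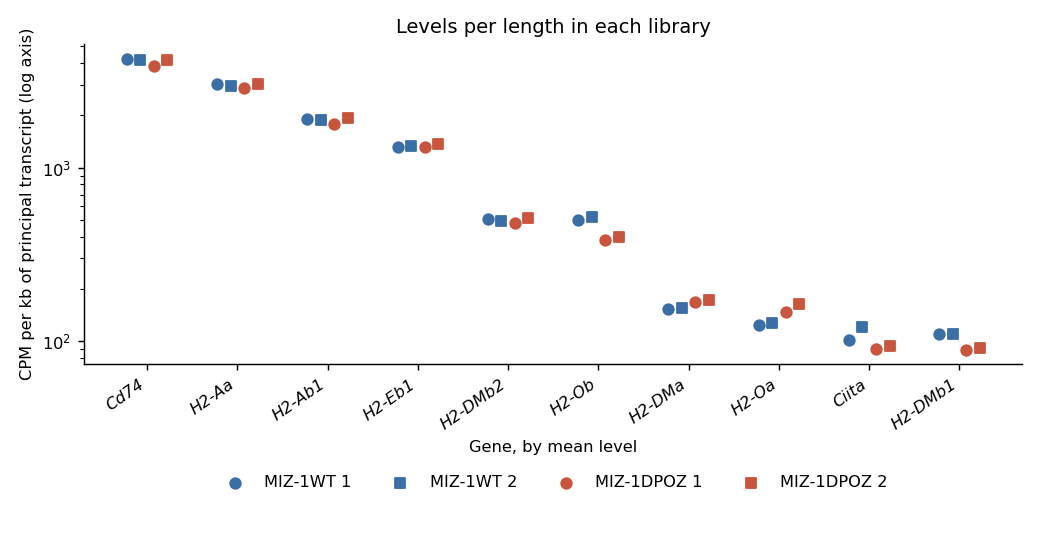
Level of each gene per length, in CPM per kb of principal transcript on a log axis, in each of the 4 libraries, ordered by the mean level. Cd74, H2-Aa, H2-Ab1 and H2-Eb1 lie at 1307 CPM per kb or more, and the other 6 genes at 520.1 or less.

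Ciita, at chr16:10480059-10528418 on the plus strand, was at 615 and 723 CPM in MIZ-1WT and at 542 and 562 CPM in MIZ-1DPOZ. Both MIZ-1DPOZ libraries were lower, and the 2 MIZ-1WT libraries differed by 0.23 on the log2 scale, the widest gap between replicates among the 10 genes. It fell by 0.28 ± 0.08 (SE, 95% interval -0.49 to -0.07) with an adjusted p of 0.0452. The call was lost without MIZ-1WT replicate 2, where the log2 fold change was -0.16 and the adjusted p 0.186, and also without MIZ-1DPOZ replicate 1 (adjusted p = 0.0869) or MIZ-1DPOZ replicate 2 (adjusted p = 0.0507). Its exons share 329 bases with Dexi on the opposite strand, which had between 506 and 559 counts against 24673 to 30399 for Ciita.

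Among the factors that bind class II promoters and recruit CIITA, 4 of 7 fell and 0 rose, with a median log2 fold change of -0.44, against 18.9% lower among all tested genes. Rfxank, a subunit of the RFX complex that binds the X box, had 1247 and 1175 counts in MIZ-1WT and 774 and 771 counts in MIZ-1DPOZ, and fell by 0.74 ± 0.07 (SE) on the log2 scale (adjusted p = 0.0019). The other RFX subunits did not pass, with log2 fold changes of 0.04 for Rfx5 and -0.07 for Rfxap. Nfya and Nfyb, subunits of the NF-Y complex that binds the Y box, fell by 0.74 ± 0.09 and 0.48 ± 0.06 (SE) on the log2 scale (adjusted p = 0.0032 and 0.0035), and the third subunit, Nfyc, was at -0.09 (adjusted p = 0.431). Creb1, a factor of the CREB family that binds the X2 box, fell by 0.44 ± 0.04 (SE, adjusted p = 0.0018). The same number, 4, was called in each fit without 1 library, and with the pan-B scaling 3 were lower, 1 was higher (Rfx5, 0.30) and Nfyb was at -0.22 with an adjusted p of 0.0593.

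Of the factors known to act on the Ciita gene, 1 of 7 rose and 3 fell, with a median log2 fold change of -0.09, against 21.1% higher and 18.9% lower among all tested genes. With the pan-B scaling the balance turned, to 3 higher and 0 lower with a median of 0.17, against a median of 0.25 over all tested genes. Prdm1, which encodes the repressor BLIMP-1 that silences Ciita in plasma cells, had 272 and 287 counts in MIZ-1WT and 827 and 747 counts in MIZ-1DPOZ, and rose on the log2 scale by 1.40 ± 0.10 (SE, adjusted p = 0.0009). Pax5, the B lineage identity factor, fell by 0.46 ± 0.10 (SE, adjusted p = 0.0147), and the interferon regulatory factors Irf8 and Irf1 fell by 0.19 each (adjusted p = 0.0254 and 0.0370), whereas with the pan-B scaling Pax5 was at -0.20 (adjusted p = 0.0823) and Irf8 and Irf1 were at 0.07. Irf4 at -0.09 and Spi1 at -0.03 did not pass the test. Each fit that left out 1 MIZ-1WT library called 1 of these 7 genes.

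Genes of endosomal processing, most of them proteases that degrade antigen and the invariant chain, were mostly higher in MIZ-1DPOZ. Of 10 such genes, 7 rose and 1 fell, with a median log2 fold change of 0.39, against 21.1% higher and 18.9% lower among all tested genes. Ctss encodes cathepsin S, the main protease of the last step of invariant chain cleavage in B cells. It had 39992 and 41195 counts in MIZ-1WT and 66344 and 53658 counts in MIZ-1DPOZ, and rose by 0.46 ± 0.08 (SE) on the log2 scale (adjusted p = 0.0083). The values of MIZ-1DPOZ were both above those of MIZ-1WT, with replicate 1 the highest.

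Ctsd and Ctsb, the genes of cathepsins D and B, rose by 1.55 ± 0.16 and 1.55 ± 0.19 (SE) on the log2 scale, and Lgmn, the gene of the asparagine endopeptidase, rose by 1.01 ± 0.11. Ctsl rose by 0.71 ± 0.22 by edgeR (adjusted p = 0.0483, and 0.107 by DESeq2), and Ifi30, which encodes the thiol reductase GILT, by 0.32 ± 0.06. Ctsz rose by 0.20 ± 0.06. Ctsh fell by 0.26 ± 0.05 (adjusted p = 0.0103) and was at -0.0047 with the pan-B scaling. Cst3, the gene of a cathepsin inhibitor, was at 0.13 and did not pass. Sppl2a, the protease that removes the last membrane-bound fragment of the invariant chain, was at 0.07 and did not pass either. Of the 10, 3 were called in either direction without MIZ-1WT replicate 1, and without MIZ-1WT replicate 2, 5 were called. Ctsd, Ctsb and Lgmn were called in each fit without 1 library.

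Macrophage genes moved with these proteases. All 16 macrophage markers rose, with a median log2 fold change of 1.98, against 21.1% higher among all tested genes. Their sum was 943 and 1242 CPM in MIZ-1WT and 5512 and 3437 CPM in MIZ-1DPOZ, with no marker at 0 in any library. The fit without MIZ-1WT replicate 1 called 13 of the 16. Macrophages are rich in cathepsins and also carry class II molecules. MIZ-1DPOZ replicate 1, which had the higher macrophage sum, had the higher CPM of Ctss, Ctsb, Ctsd, Ctsl, Lgmn and Ctsz than MIZ-1DPOZ replicate 2. Ifi30 went the other way, at 192 CPM against 197 CPM. The summed CPM of the 10 class II genes was also lower in MIZ-1DPOZ replicate 1, at 15835 against 16856. The part of macrophage RNA in the values of the class II and protease genes was not tested.

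Dendritic cells are the other main class II bearing cells of the spleen. Of 11 conventional dendritic cell markers 6 rose and 2 fell, against 21.1% higher and 18.9% lower among all tested genes. Their median log2 fold change was 0.99, and their sum was 251 and 256 CPM in MIZ-1WT and 478 and 391 CPM in MIZ-1DPOZ. The largest part of that sum in MIZ-1WT came from Ccr7, which is also in the follicular B cell list and fell from a mean of 141.7 to 99.2 CPM. Sirpa, which macrophages also express, made up 70.6 CPM in MIZ-1WT and 271 CPM in MIZ-1DPOZ. Zbtb46, a transcription factor of conventional dendritic cells, was at 2.72 and 6.18 CPM (adjusted p = 0.0040), and Cd209a, with 382 and 305 counts in MIZ-1WT, fell to 165 and 123 counts in MIZ-1DPOZ (adjusted p = 0.0036). Xcr1, Batf3 and Fscn1 had means below 2 CPM in both genotypes, and Batf3 and Fscn1 are among the 6 that rose. Plasmacytoid dendritic cells carry B220 themselves, and of 8 markers 1 rose and 1 fell, with a sum between 871 and 1083 CPM, most of it from Ly6d and Tcf4, which B cells also express. The part of dendritic cells in the class II values was not tested.

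RNA of B cell subset markers also differed between the genotypes, and which cells carried the difference was not tested. The counts in this paragraph stand beside 21.1% higher and 18.9% lower among all tested genes. Plasma cells switch off Ciita, and 7 of 8 plasma cell markers rose (median log2 fold change 1.04), with sums of 884 and 1203 CPM in MIZ-1WT and 2727 and 2557 CPM in MIZ-1DPOZ. Of 10 marginal zone B cell markers 9 rose (median 0.70), and of 6 follicular B cell markers 4 fell and 1 rose (median -0.51). The lists are not independent, since the plasma cell and marginal zone lists share a gene. Prdm1 and Irf4 are both in the plasma cell list and among the factors acting on Ciita. Pax5 is also among those factors and among the pan-B cell markers used for the pan-B scaling. The follicular gene that rose is also in the marginal zone list. Of 10 pan-B cell markers 8 fell and 0 rose (median -0.28), and 2 fell in each fit that left out 1 MIZ-1WT library. Markers of T cells (2 of 12 higher), NK cells (2 of 7), neutrophils (3 of 7) and erythroid cells (0 of 7) were low, with sums of at most 112 CPM in any library.

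Of 8 genes of class II turnover and trafficking, 2 rose and 2 fell, with a median log2 fold change of -0.06, close to the 21.1% higher and 18.9% lower among all tested genes. Marchf1, which encodes the ubiquitin ligase that sends surface class II to degradation in resting B cells, had 24108 and 27025 counts in MIZ-1WT and 22142 and 21157 counts in MIZ-1DPOZ, and fell by 0.34 ± 0.08 (SE, adjusted p = 0.0217), whereas it was at -0.08 with the pan-B scaling (adjusted p = 0.412). Its relative Marchf8 had 159 and 198 counts in MIZ-1WT and 751 and 538 counts in MIZ-1DPOZ, and rose by 1.75 ± 0.19 (SE, adjusted p = 0.0022). Cd83, which opposes MARCH1 and stabilises surface class II, was at -0.07 (adjusted p = 0.536). Ap1m1, a clathrin adaptor subunit, fell by 0.52 and Lamp1, a membrane protein of lysosomes, rose by 0.48, and the other 3 genes, Ap2m1, Rab7 and Arl8b, were between -0.19 and 0.01. Of this list, 2 genes were called without MIZ-1WT replicate 2.

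Costimulatory and inhibitory surface molecules accompany class II molecules when B cells contact T cells. Of 6 such genes 3 rose and 2 fell, with a median log2 fold change of 0.08, against 21.1% higher and 18.9% lower among all tested genes. Cd86 had 3549 and 3430 counts in MIZ-1WT and 7407 and 4873 counts in MIZ-1DPOZ, and rose by 0.71 ± 0.15 (SE, adjusted p = 0.0156). Cd80 rose by 1.04 from a low level of 3.44 CPM, and Cd274, the gene of the inhibitory ligand PD-L1, rose by 0.41. Cd40 and Icosl fell by 0.27 and 0.29 and were at -0.01 and -0.03 with the pan-B scaling. The fit without MIZ-1WT replicate 1 called 2 of the 6, and without MIZ-1WT replicate 2, 3 were called.

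Of 12 genes of MHC class I presentation 4 rose and 0 fell, with a median log2 fold change of 0.14, against 21.1% higher among all tested genes. With the pan-B scaling all 12 were called higher, with a median of 0.39. Over all 14554 tested genes that scaling called 6121 higher, with a median of 0.25. A filter at a mean of 30 RPM called 1464 of 6052 genes higher. With the main scaling, the 4 were Nlrc5, the class I counterpart of Ciita (0.31 ± 0.05, SE, adjusted p = 0.0053), B2m (0.28), Tap1 (0.25) and Psmb9 (0.22). Nlrc5 thus rose in the same libraries in which Ciita fell, and the 2 genes had 178.9 against 222 CPM and 669 against 552 CPM in MIZ-1WT against MIZ-1DPOZ. By edgeR at an adjusted p under 0.05, 0 of the 12 passed without MIZ-1WT replicate 1, 1 without MIZ-1WT replicate 2, and 11 with a filter at a mean of 30 RPM.

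**Figure D5:**
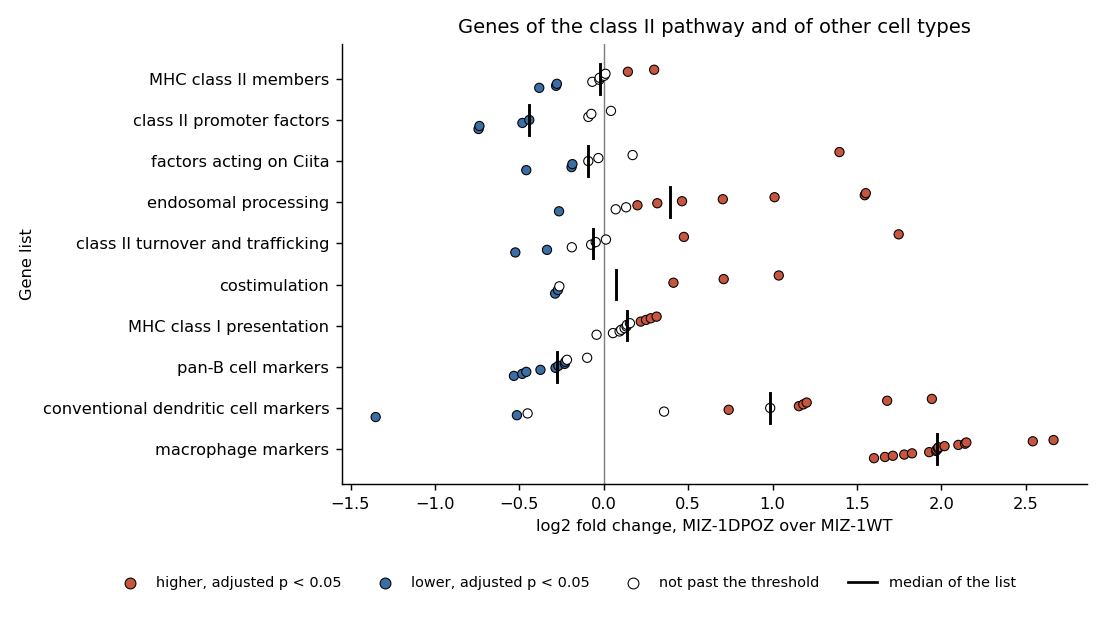
Log2 fold changes in MIZ-1DPOZ over MIZ-1WT of the class II genes and of the gene lists set beside them, 1 point per tested gene, filled red or blue where higher or lower at an adjusted p under 0.05, with a line at the median of each list. The medians are -0.02 for the class II genes, -0.44 for the promoter factors, 0.39 for endosomal processing and 1.98 for the macrophage markers.

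The 8 H2 genes among the 10 lie within 224 kb, at chr17:34092340-34316674, in the order H2-Oa, H2-DMa, H2-DMb2, H2-DMb1, H2-Ob, H2-Ab1, H2-Aa and H2-Eb1. The annotation places 9 other genes between them, of which 6 were tested, 2 rose and 2 fell, with a median log2 fold change of 0.11. The rising genes were the class I genes Psmb9 and Tap1, which lie between H2-DMb1 and H2-Ob, and those that fell were Brd2 and Gm20513 (-0.54, adjusted p = 0.016). Neighbours did not move alike throughout this stretch. H2-DMb1, which fell, was followed by Psmb9, which rose, and H2-Ob, which fell, was followed by H2-Ab1 at -0.03.

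The 10 genes differed little between replicates. The median absolute log2 CPM difference between the 2 libraries of a genotype was 0.04 in MIZ-1WT and 0.08 in MIZ-1DPOZ, and the largest was 0.23 for Ciita in MIZ-1WT and 0.15 for H2-Oa in MIZ-1DPOZ. Over the 4 libraries, with each gene's log2 CPM centred on its own mean, Cd74 and H2-Ab1 lay nearest to the mean profile of the 10 genes, at Euclidean distances of 0.05 each, and H2-Oa and H2-Ob farthest, at 0.36 and 0.32. The 5 other protein-coding genes nearest to this mean profile were Ndufv2, Cactin, Sri, Map4 and Flii, at distances between 0.0066 and 0.018. Their log2 fold changes ranged from -0.06 to -0.05 and none passed the test, so that the likeness is to a profile that was nearly flat over the 4 libraries.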

How the data were processed

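RNA-seq of B220+ splenocytes was analysed, with 2 MIZ-1WT and 2 MIZ-1DPOZ libraries grouped by their labels. RNA was depleted of ribosomal RNA and stranded libraries were read from both ends. The authors trimmed reads with Trimmomatic, mapped them to mm10 with TopHat2 (version 2.1.0 per the submitters' processing notes, another version in the study's methods) and used HTSeq to count reads per Ensembl gene. The deposited counts are raw, neither normalized nor pooled. The strand setting and the Ensembl release are not given in the sources used here, so overlaps with a gene on the other strand are named beside the values. HTSeq's summary lines entered neither library sizes nor tests. They held 21.1% to 27.2% of the table's total per library as reads outside genes, 42.8% to 44.1% without a unique alignment and 0.281% to 0.302% ambiguous.

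Symbols came from the GENCODE annotation of GRCm38, for 40340 of 41214 genes. Genes that reached 10 counts in 2 or more libraries were tested with edgeR version 4.0.16 in R version 4.3.3 (TMM scaling, quasi-likelihood test, Benjamini-Hochberg adjustment over 14554 genes, common dispersion 0.00848, threshold 0.05), and the procedure was tested on simulated data. CPM were scaled by TMM, and levels between genes were divided by the length of the principal transcript. Intervals are 95% intervals of the fit. Alternatives were DESeq2's size factors, DESeq2 version 1.42.0, no filter, a mean of 30 RPM (reads per library, scaled like CPM), a replicate block, scaling on pan-B markers and leaving out each library.

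The text names the 10 genes, genes of the lists set beside them, the H2 region's genes, Zbtb17, genes that bear on sex or the Cre, genes overlapping one of the 10, and the 5 genes nearest in profile. The genes and lists were chosen with earlier results of these data known, and no set test was run. One gene of a list is not reported here by name.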

Additional observations from a re-analysis of the deposited data

How the results depend on the processing

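With DESeq2's size factors and with DESeq2's Wald test, the 10 genes kept their direction and their side of the threshold, and the counts over all genes and over each pathway list stayed within 1.5 times. By the Wald test Ctsl was not called (adjusted p = 0.107), which left 6 of 10 endosomal genes higher, and 1 of 7 NK and 2 of 7 neutrophil markers were higher. With no filter, 1 of the 10 genes was higher, H2-DMa was at 0.13 (adjusted p = 0.0758) and H2-DMb2 at -0.0053. With the filter at a mean of 30 RPM, which left 6052 genes, 1464 genes were higher and 1282 lower, H2-Aa was at 0.052, H2-Ab1 at 0.050, Cd74 at 0.0087 and Ciita at -0.20 (adjusted p = 0.114). With the pan-B scaling, 6121 genes were higher and 739 lower against 3076 and 2746, and 7 of the 10 genes were higher and 0 lower: H2-Aa and H2-Ab1 were at 0.23, H2-Eb1 at 0.27, Cd74 at 0.19, H2-DMb2 at 0.26, H2-Oa at 0.56, H2-DMa at 0.40, H2-DMb1 at -0.024, H2-Ob at -0.12 and Ciita at -0.018. The H2-DM to H2-O ratio turned to -0.15 with the alpha chains alone, and H2-DMb1 and H2-DMb2 summed, added after seeing the data, gave -0.044.

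Without 1 library in turn, where the lone library is assumed to vary like the other genotype, 1367 to 3017 genes were higher and 837 to 2722 lower, the lowest counts both without MIZ-1WT replicate 1 (1721 and 1104 without MIZ-1WT replicate 2). Of the 10 genes 0 to 2 were higher and 1 to 2 lower, and 13 to 30 genes of the pathway lists were called against 29. The log2 fold changes ranged from -0.061 to 0.024 for H2-Aa, -0.070 to 0.029 for H2-Ab1, -0.011 to 0.043 for H2-Eb1, 0.13 to 0.17 for H2-DMa, -0.29 to -0.26 for H2-DMb1, -0.038 to 0.054 for H2-DMb2, 0.23 to 0.38 for H2-Oa and -0.39 to -0.16 for Ciita. The causes of these changes were not tested. Some of these fits also rested on fewer genes or libraries.

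Libraries with the same replicate number did not deviate together (correlation -0.069 over 14554 genes). The value is the same for both numbers by construction, since deviations were taken from the mean of 2 libraries. It gave no sign that the numbers pair the libraries but cannot exclude it. With the replicate block, 2633 genes were higher and 2099 lower, and 1 of the 10 genes was higher, with H2-DMa at 0.14 (adjusted p = 0.106). No other call among the 10 genes changed, and 2 of the 7 factors acting on Ciita were called against 4. With 2 libraries per genotype, depth was not the limit for these genes, which had at least 5682 counts in each library, but the spread rested on few libraries, and sex, genotype and the share of other cells could not be separated.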
